A study of Ovis aries with 14 samples.

Results

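The 12S and 16S ribosomal RNAs of the mitochondrion were followed in the perirenal fat of 14 male suckling lambs. They are ENSOARG00000000002 (12S rRNA, 958 bases) and ENSOARG00000000004 (16S rRNA, 1574 bases), 2 of the 27054 genes in each deposited table, and were chosen by gene ID. The files give IDs without symbols, so the identity was checked by length. All 37 IDs from ENSOARG00000000001 to the 37th in order had the lengths of the 37 mitochondrial genes in the RefSeq gene table of assembly ARS-UI_Ramb_v3.0, taken in genome order. The 2 rRNAs and the 13 protein-coding genes each have a length that occurs only once among those 37, and they are called here by the matching symbol. Coordinates are not printed because the files use another build.

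RNA sequencing was done on 8 Assaf and 6 Churra lambs, which all got colostrum from the dam and then milk replacer, and were slaughtered at a common market weight. Live weight was 9.3 to 11.3 kg in the Assaf lambs and 8.86 to 10.94 kg in the Churra lambs. The slaughter day in the labels was 17 to 23 in Assaf and 21 to 35 in Churra, so breed and day were partly confounded. From when the day counts is not stated, and day 17 lies below the youngest age that the design text gives. The labels name no genotype, treatment or pooling of animals, and each library is 1 lamb. The labelled tissue could not be checked against fat markers, since no nuclear gene ID could be matched to a symbol.

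Mitochondria carry a small circular genome with its own protein synthesis. The 12S rRNA is the core of the small subunit of the mitochondrial ribosome and the 16S rRNA that of the large subunit, while the ribosomal proteins come from nuclear genes. The rRNA genes lie next to each other, parted by the gene of a transfer RNA, and are copied as part of long precursors of the heavy strand that also hold most of the mRNAs. In most tissues the mature rRNAs are more abundant than the mitochondrial mRNAs. Perirenal fat of the newborn lamb is known as a brown, mitochondria-rich depot that takes on features of white fat in the first weeks of life.

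Total counts ran from 14152623 to 24370948 per lamb. Of the 37 mitochondrial genes, 15 had counts, namely both rRNAs and all 13 mRNAs. The 22 transfer RNA genes, 60 to 75 bases long, had an effective length of 0 and no count in any lamb, because they are shorter than the sequenced fragments, whose mean length ranged from 157.5 to 167.5 bases. The lambs Assaf 7 and Churra 6 had the highest levels of mitochondrial mRNA. The 9 mRNAs used for comparison below took 43.6% and 33.8% of their counts, against 15.8% to 30.9% in the other lambs. Churra 6 thus lay close to the next lamb, Assaf 8 at 30.9%. In bulk tissue, fewer mitochondria-rich cells and less mitochondrial RNA per cell cannot be told apart.

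Both rRNAs were low against the mRNAs of the same genome. TPM, the deposited abundance per length, allows levels of different genes to be compared. 12S rRNA had a median of 366 TPM over the 14 lambs, from 117 in Churra 1 to 855 in Churra 6. 16S rRNA had a median of 1959 TPM, from 593 in Churra 1 to 5313 in Assaf 7. In every lamb, 12S lay below all 13 mitochondrial mRNAs and 16S lay below 12 of them. The exception was ND6, a complex I subunit and the only mRNA copied from the light strand, at 482 to 1380 TPM. The least abundant of the 9 mRNAs compared was ND5, another complex I subunit, at 4058 to 10819 TPM.

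**Figure D1:**
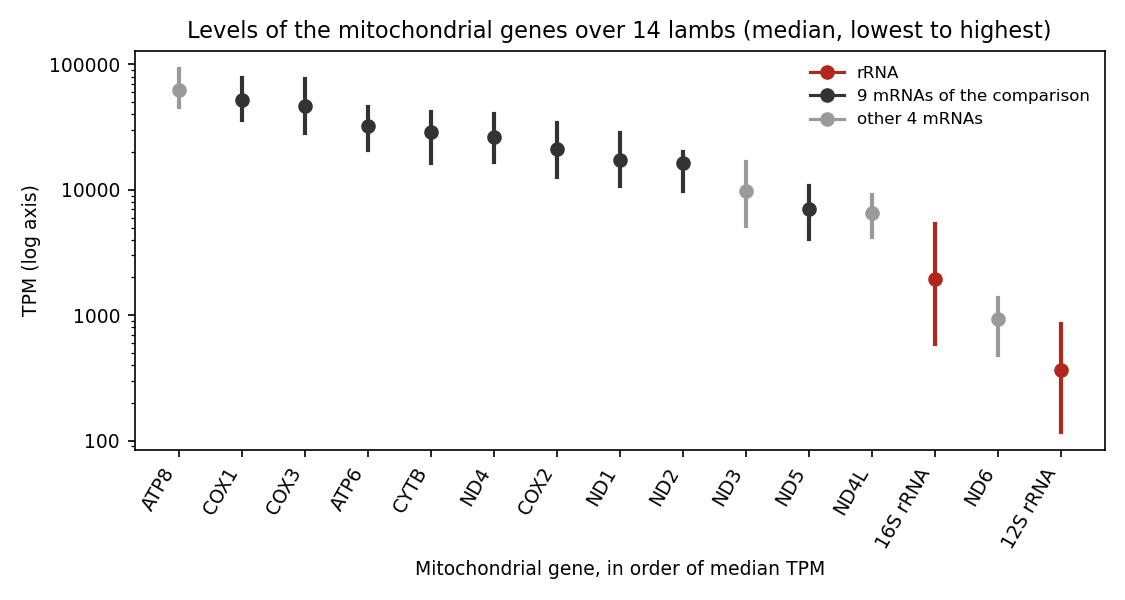
Level of each mitochondrial gene with counts, in TPM on a log axis. Points are medians over 14 lambs and bars run from the lowest to the highest lamb. 12S rRNA is the lowest gene, at a median of 366 TPM, and 16S rRNA, at 1959 TPM, lies between ND6 and the other mRNAs.

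The comparison set held ND1, ND2, ND4 and ND5 (complex I subunits), CYTB (the complex III cytochrome b), COX1, COX2 and COX3 (cytochrome c oxidase subunits) and ATP6 (an ATP synthase subunit). COX1 was the most abundant of them at 52890 ± 11960 TPM (SD, n = 14), and ND5 was at 7017 ± 1821 TPM (SD, n = 14). Within each lamb, the least abundant of the 9 exceeded 16S by 2.04-fold in Assaf 7 to 8.46-fold in Churra 1. The summed TPM of both rRNAs came to 0.418% of the summed TPM of the 9 mRNAs in Churra 1 and to 1.60% in Assaf 7, with a median of 0.984%. The labels name a stranded total RNA library kit. Whether and how ribosomal RNA was removed is not given in the sources used here, and its part in these levels was not tested.

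As shares of all counts, the rRNAs were small but well counted. The estimated count of 12S ran from 1922 in Churra 1 to 19534 in Churra 6, and that of 16S from 17223 in Churra 1 to 195343 in Assaf 7. 12S took 0.0100% of counts in Churra 1 (exact Clopper-Pearson 95% interval 0.00958% to 0.0105%) and 0.0802% in Churra 6 (0.0790% to 0.0813%). 16S took 0.0898% in Churra 1 (0.0885% to 0.0912%) and 0.945% in Assaf 7 (0.941% to 0.949%). These intervals cover counting error only, and the differences between lambs were far wider. The deposited posterior SD of the count, which is above 0 where reads are shared with other annotated genes, was listed at 0 for both rRNAs in all 14 lambs. For the mRNA ND4L it reached 1229 reads, while for ND4, which overlaps ND4L, it was 0. The source of the ND4L value was not tested.

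The level of the rRNAs in single lambs is best read by slaughter day. On day 21, where both breeds were present, 12S was at 346 TPM in Assaf 6, 692 TPM in Assaf 7, 427 TPM in Churra 5 and 855 TPM in Churra 6. 16S was on that day at 2343 TPM in Assaf 6, 5313 TPM in Assaf 7, 2106 TPM in Churra 5 and 3727 TPM in Churra 6. The highest levels of both rRNAs thus came from 1 lamb of each breed on the same day.

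On day 23, 12S was at 416 TPM in Assaf 2, 282 TPM in Assaf 3, 385 TPM in Assaf 4 and 216 TPM in Churra 4. The 16S levels of the same lambs were 2352, 1286, 1846 and 1508 TPM. Churra 4 was the lowest of these lambs for 12S and lay within the Assaf range for 16S. Assaf 5, the lamb of day 22, had 211 TPM of 12S and 1417 TPM of 16S.

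The Assaf lambs slaughtered first, Assaf 1 on day 17 and Assaf 8 on day 18, had 297 and 614 TPM of 12S and 2044 and 1874 TPM of 16S. They differed more in 12S than in 16S. The Churra lambs of the later days had 396 TPM of 12S and 2533 TPM of 16S on day 29 (Churra 3), 191 and 878 TPM on day 30 (Churra 2), and 117 and 593 TPM on day 35 (Churra 1). The lambs of days 30 and 35 had the lowest levels of both rRNAs in the study, while the lamb of day 29 lay within the range of days 21 to 23.

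**Figure D2:**
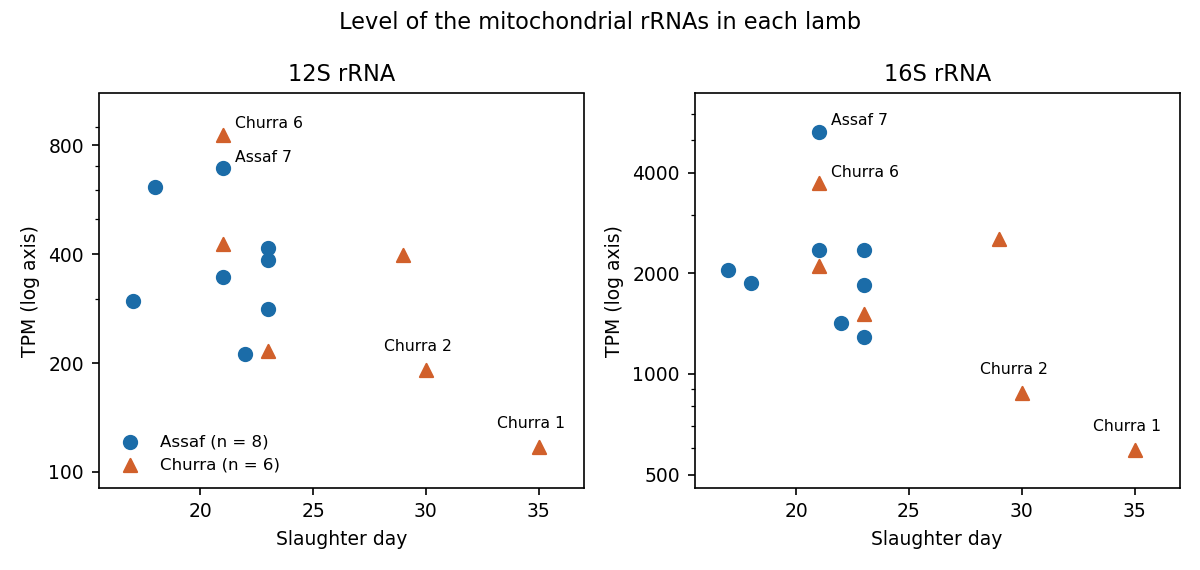
TPM of 12S rRNA (left) and 16S rRNA (right) in each of the 14 lambs, on log axes, against slaughter day. Circles are Assaf (n = 8) and triangles Churra (n = 6) lambs. Churra 1 and Churra 2 lie lowest in both panels and Assaf 7 and Churra 6 highest.

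The first comparison, implied by the study's breeds, asked whether the rRNAs differed between Assaf and Churra lambs. 12S had a median of 366 TPM in Assaf (211 to 692) and 306 TPM in Churra (117 to 855). 16S had a median of 1959 TPM in Assaf (1286 to 5313) and 1807 TPM in Churra (593 to 3727). For both rRNAs the ranges overlapped over most of their width.

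The fold changes between breeds were smaller than the spread between lambs. For 12S the log2 fold change of Churra against Assaf was -0.27 ± 0.51 (SE; edgeR quasi-likelihood test over all genes, Benjamini-Hochberg adjusted p = 0.884). For 16S it was -0.47 ± 0.53 (SE, edgeR adjusted p = 0.769). For each rRNA the standard error was larger than the fold change itself. The direction was not settled either, as without Assaf 7 the values were 0.06 for 12S and 0.06 for 16S, and with slaughter day as a term 12S had 0.43 (edgeR adjusted p = 0.750) and 16S had 0.16 (edgeR adjusted p = 0.928). Without both Assaf 7 and Churra 6 the value for 12S was -0.52 (edgeR adjusted p = 0.675) and that for 16S -0.36 (edgeR adjusted p = 0.779).

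Of the 15 mitochondrial genes tested, 0 passed the adjusted threshold of 0.05 between the breeds, where 0.197% of all 13197 genes tested did. At an unadjusted edgeR p below 0.05 there was 1 of 15 (ND3, a complex I subunit, log2 fold change -0.68 ± 0.31 SE), against 13.4% of all genes. ND3 lies outside the rule for named genes and was singled out after its value was seen. DESeq2 called 0 of the 15 (2.81% of all genes) and limma voom called 0 (0.189% of all genes), with 1 and 0 of the 15 at an unadjusted p below 0.05 (14.3% of all genes by DESeq2, and 1712 of 13197 by limma voom). The fitted values of all 15 were negative, with a median of -0.29 against -0.01 over all genes tested, but 2 of the 15 were positive with no scaling beyond the library total and 13 with slaughter day as a term. The median was -0.03 without Assaf 7, with 6 of the 15 positive, and -0.49 without Churra 6. It was -0.23 without both of these lambs and -0.03 without Churra 1 and Churra 2. The 15 values come from the same lambs and libraries, so they are not independent of each other. All of these genes but ND6 are also copied in shared precursors.

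**Figure D3:**
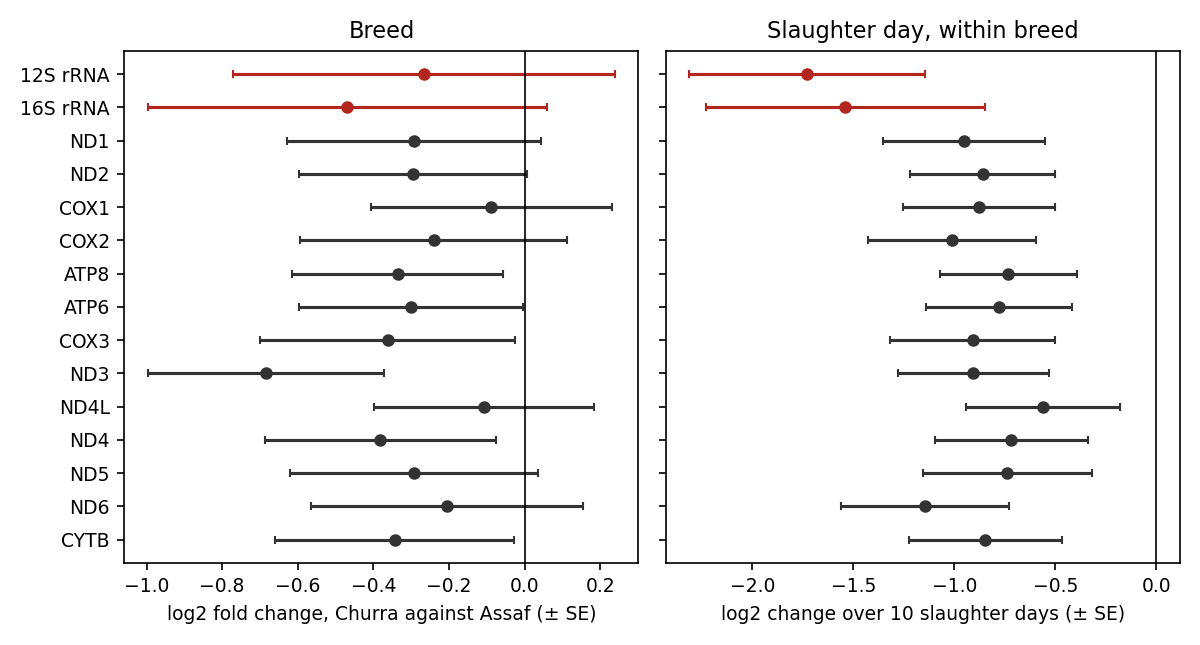
edgeR log2 fold change of Churra against Assaf (left) and log2 change over 10 slaughter days within breed (right) for the 15 mitochondrial genes with counts, with standard errors, over 14 lambs. The rRNAs are in red. Their slopes on the day, -1.73 and -1.54, are the lowest points of the right panel, with wider errors than those of the mRNAs, and no gene in either panel passed the adjusted threshold.

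The second comparison concerned the slaughter day within the breeds. The fitted 12S level was 3.32-fold lower over 10 days, a log2 change of -1.73 ± 0.58 (SE, n = 14). Its unadjusted edgeR p of 0.0102 became 0.228 after adjustment over all genes. The fitted 16S level was 2.91-fold lower over 10 days, a log2 change of -1.54 ± 0.69 (SE, n = 14). Its edgeR p of 0.0430 (unadjusted, n = 14) became 0.291 after adjustment. Neither passed the threshold in edgeR. DESeq2 gave 12S a slope of -0.17 log2 units per day with an adjusted p of 0.0491, which lies just inside the threshold, while the adjusted p of 12S under the other alternatives ranged up to 0.993.

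The slope depended on a few Churra lambs, the latest ones and also Churra 6 of day 21. Without Churra 1 and Churra 2, the lambs of days 35 and 30, the log2 slope per day of 12S went from -0.17 to -0.11 (edgeR adjusted p = 0.788) and that of 16S from -0.15 to -0.05 (edgeR adjusted p = 0.926). Without Churra 1 alone the slopes were -0.15 for 12S and -0.11 for 16S per day. Without Churra 6 alone they were -0.12 for 12S (edgeR adjusted p = 0.579) and -0.11 for 16S (edgeR adjusted p = 0.640). Without both Assaf 7 and Churra 6 the slopes were -0.12 for 12S and -0.11 for 16S per day. Within Churra the slope of 12S was -0.18 per day (edgeR adjusted p = 0.210) and within Assaf -0.12 (edgeR adjusted p = 0.993). For 16S the slope was -0.17 in Churra (edgeR adjusted p = 0.236) and -0.07 in Assaf (edgeR adjusted p = 0.993).

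A library measure moved with the day in Churra. The length slope of a lamb is the regression of its log2 CPM deviations on log2 gene length, over genes outside the mitochondrial genome, and a negative value means relatively lower long genes. It was -0.0397 in Churra 6, -0.0215 in Churra 5 and -0.0295 in Churra 4, the lambs of days 21 to 23. It was 0.0184 in Churra 3, 0.0594 in Churra 2 and 0.0343 in Churra 1, the lambs of days 29 to 35, and its part in the slopes on the day was not tested.

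A difference in slope between the breeds was not detectable. The slope of Churra minus that of Assaf was -0.07 ± 0.16 log2 units per day for 12S (SE, edgeR adjusted p = 0.9996) and -0.10 ± 0.19 for 16S (SE, edgeR adjusted p = 0.9996). No gene passed the adjusted threshold for this term in edgeR (0% of 13197, 4.20% at an unadjusted p below 0.05). DESeq2 passed 0.0303% of genes (4.58% unadjusted) and limma voom 0% (3.96% unadjusted), neither rRNA among them. By each of these tools, 0 of the 15 mitochondrial genes had an unadjusted p below 0.05 for this term.

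Among the mitochondrial genes, 0 of 15 passed the adjusted edgeR threshold for the day, as did 0% of all genes tested. At an unadjusted edgeR p below 0.05 there were 12 of 15, all with negative slopes, against 16.3% of all genes. DESeq2 passed 1 of 15 (12S) against 1.18% of all genes, and limma voom 0 of 15 against 0%, each with 12 of 15 at an unadjusted p below 0.05 (17.7% and 16.7% of all genes). That count of 12 changed with single lambs left out. It was 0 without Churra 1, 3 without Churra 2, 2 without Churra 6, 7 without Churra 4, 6 without Assaf 4 and 7 without Assaf 5. It was 9 without Assaf 2 or Assaf 3 and 8 without Assaf 6 or Assaf 8. It stayed at 12 without Assaf 1, Churra 3 or Churra 5 and rose to 14 without Assaf 7. Without Churra 1 and Churra 2 together it was 0 of 15, against 7.04% of all genes. Without Assaf 7 and Churra 6 it was 13 of 15, against 11.4%. With 1 lamb left out, the share of all genes ranged from 8.86% to 19.6%. Over 10 days the log2 change of the 9 compared mRNAs ran from -1.01 ± 0.41 (SE, COX2) to -0.72 ± 0.38 (SE, ND4). In this fit the rRNA slopes were steeper in value than those of all 13 mRNAs, of which ND6 was the steepest (-1.145 ± 0.416 SE). The 1 SE intervals of both rRNAs overlapped that of COX2. All these slopes come from the same lambs, so such overlap does not measure a difference in slope. That difference was not tested. Without Churra 1 and Churra 2, 11 of the 13 mRNAs were steeper than 16S and 0 steeper than 12S. In Assaf only, 12 were steeper than 16S and 4 steeper than 12S.

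Because the mRNAs had negative slopes as well, the rRNAs were also set against them within each lamb, which needs no scaling between lambs. The log2 ratio of both rRNAs to the 9 mRNAs averaged -6.64 ± 0.32 over the 8 Assaf lambs (SD) and -6.96 ± 0.70 over the 6 Churra lambs (SD). The difference of -0.32 had an exact permutation p of 0.277 (two-sided, all 3003 splits of the lambs), and 0.757 after adjustment over 3 values compared. Without Churra 1 and Churra 2 the difference was 0.07, and without Assaf 7 and Churra 6 it was -0.40. The breeds overlapped, with Churra holding both the lowest ratio and the second highest.

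With the slaughter day the ratio of rRNA to mRNA had a Spearman's rho of -0.256 over 14 lambs (permutation p = 0.372, or 0.602 after adjustment over 17 relations). The Pearson correlation of -0.601 (permutation p = 0.0249, adjusted p = 0.106) turned to 0.132 once Churra 1 and Churra 2 were left out, so it rested on that pair of lambs. In Churra 1 and Churra 2 the rRNAs came to 0.418% and 0.528% of the mRNA level, the lowest values of all lambs. The next was Churra 4 of day 23 at 0.704%. The Churra lambs alone gave a rho of -0.783 and an r of -0.730 (exact permutation p = 0.0778 for rho, p = 0.114 for r). The Assaf lambs alone gave a rho of 0.442 and an r of 0.176 (exact permutation p = 0.273 for rho, p = 0.660 for r). The difference between these breed values was not tested. Over the 14 lambs, the ratio of 12S alone to the mRNAs had a rho of -0.506 with the day (permutation p = 0.0651, adjusted p = 0.270). That of 16S alone had a rho of -0.301 (permutation p = 0.292, adjusted p = 0.497). Whether the values of 12S and 16S differ was not tested.

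The share of all counts in 12S and 16S together averaged 0.424 ± 0.250% over Assaf lambs (SD, n = 8) and 0.340 ± 0.220% over Churra lambs (SD, n = 6), with an exact permutation p of 0.565 (adjusted p = 0.757). The difference of Churra minus Assaf turned to 0.00103 percentage points without Assaf 7 and was -0.0712 without Assaf 7 and Churra 6. The share had a rho of -0.486 with the slaughter day (permutation p = 0.0794, adjusted p = 0.338) and an r of -0.436 (permutation p = 0.116, adjusted p = 0.305). Leaving out Churra 1 and Churra 2 brought that r to -0.0890, and leaving out Assaf 7 and Churra 6 brought rho to -0.399. The rho was -0.783 for Churra lambs alone (exact permutation p = 0.0778) and -0.295 for Assaf lambs alone (exact permutation p = 0.471). The share ran from 0.0998% in Churra 1 to 1.01% in Assaf 7, a 10.2-fold range.

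The large-subunit rRNA exceeded the small-subunit rRNA in every lamb. Per length, the level of 16S was 3.05 times that of 12S in Assaf 8, the lowest ratio, and 7.68 times in Assaf 7, the highest, with a median of 5.35. Assaf 8 had a high 12S level of 614 TPM beside a 16S level of 1874 TPM, close to the median of all lambs. A mitochondrial ribosome holds both rRNAs in equal number, and in these libraries the fragments of 16S were in excess in all 14 lambs.

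The ratio of 16S to 12S did not part the breeds. Its log2 value averaged 2.47 ± 0.44 over Assaf lambs (SD, n = 8) and 2.41 ± 0.27 over Churra lambs (SD, n = 6), a difference of -0.07 (exact permutation p = 0.757, adjusted p = 0.757). With the slaughter day it had a rho of -0.0967 (permutation p = 0.741, adjusted p = 0.787) and an r of -0.0217 (permutation p = 0.941, adjusted p = 0.941), or 0.233 with Churra 1 and Churra 2 left out. The rho was -0.393 for Assaf lambs alone (exact permutation p = 0.332) and 0.261 for Churra lambs alone (exact permutation p = 0.594). Over the 14 lambs, the log2 ratio of 16S to 12S had an SD of 0.37. The 36 pairs of the 9 mRNAs had SDs of their log2 ratios between 0.08 and 0.29, with a median of 0.18. Without Assaf 8, the lamb of the lowest ratio, the SD was 0.29 for the rRNAs and up to 0.30 for the mRNA pairs, of which 2 had an SD as large as that of the rRNAs.

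**Figure D4:**
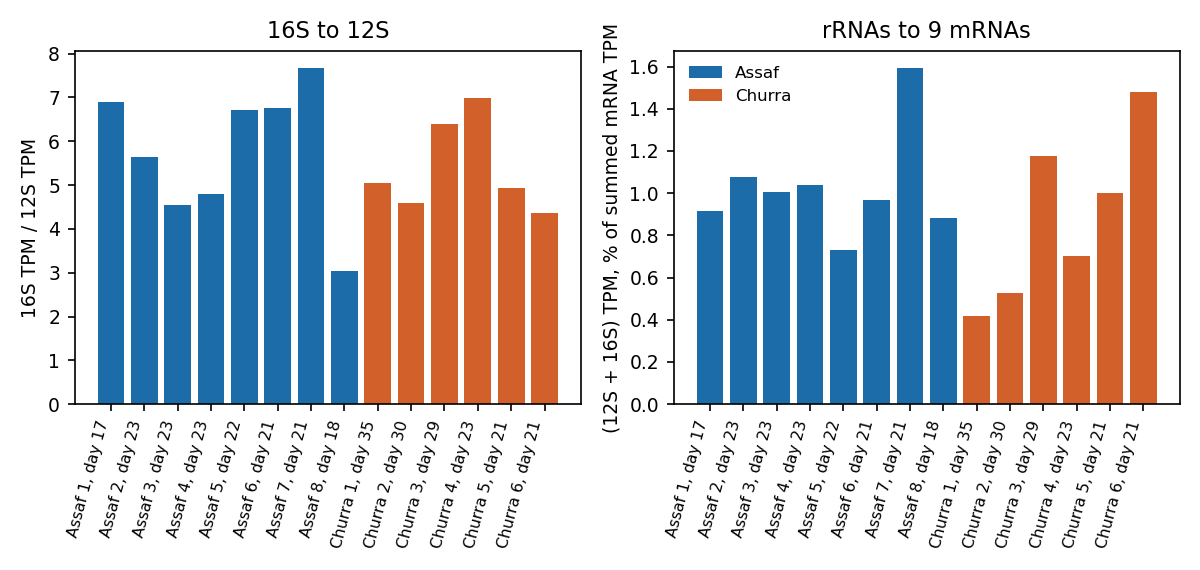
Ratio of 16S to 12S TPM (left) and summed rRNA TPM as a percent of the summed TPM of the 9 mRNAs (right), 1 bar per lamb with its slaughter day. Assaf 8 has the lowest ratio of 16S to 12S at 3.05, and Churra 1 the lowest rRNA level against mRNA at 0.418%.

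The rRNAs varied together over the lambs. On the log2 CPM scale, 16S and 12S had a rho of 0.943 (permutation p = 1e-05, the smallest the 100000 orders can give, adjusted p = 0.00017) and an r of 0.937 (permutation p = 2e-05, adjusted p = 0.00034). Without Assaf 7 and Churra 1, the lambs farthest from the median, r was 0.883. Assaf lambs alone had an r of 0.879 and a rho of 0.881 (exact permutation p = 0.00273 for r, p = 0.00724 for rho). Churra lambs alone had an r of 0.975 and a rho of 0.943 (exact permutation p = 0.00278 for r, p = 0.0167 for rho). Each pair of values shares a library and its scaling factor, and with library sizes and factors taken without the 37 mitochondrial genes rho was again 0.943.

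They also varied with the mitochondrial mRNAs. The log2 of the summed TPM of the rRNAs and that of the 9 mRNAs had a rho of 0.868 (permutation p = 0.00013, adjusted p = 0.00111) and an r of 0.870 (permutation p = 0.00012, adjusted p = 0.00102). Without Assaf 3 and Assaf 7, the lambs farthest from the median mRNA level, r was 0.919 and rho 0.811 (permutation p = 0.0021 for rho). Assaf lambs alone had an r of 0.886 and a rho of 0.881 (exact permutation p = 0.00637 for r, p = 0.00724 for rho). For Churra lambs alone they were 0.972 and 0.943 (exact permutation p = 0.00278 for r, p = 0.0167 for rho). Without Assaf 7 and Churra 6 rho was 0.790 (permutation p = 0.00345). Both sums of a lamb come from 1 library and share its TPM total. On log2 CPM scaled without the 37 mitochondrial genes rho was 0.8505 (permutation p = 0.0002, adjusted p = 0.0017).

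The rRNAs spread wider over the lambs than the mRNAs did. The summed rRNA level ranged 8.45-fold and the summed mRNA level 2.41-fold. Per log2 unit of mRNA the rRNA level differed by 2.07 log2 units, and by 1.79 to 2.64 with 1 lamb left out. The slope was 1.45 within Assaf and 3.23 within Churra, and that difference was not tested. These folds and slopes depend on the TPM scale, on which all genes of a lamb sum to a fixed total. The 9 mRNAs alone held 156100 to 376500 TPM of it. The SD of log2 TPM was 0.78 for 12S, 0.79 for 16S and 0.31 (ATP6) to 0.41 (COX2) for the 9 mRNAs. As a coefficient of variation, 12S had 53.2% and 16S 56.2% of their mean TPM, and the 9 mRNAs had from 20.9% (ATP6) to 28.6% (COX2). Among the 3645 genes with a mean above 5 log2 CPM, 21 had a larger SD of log2 CPM than 12S (SD 1.01) and 17 a larger one than 16S (SD 1.04). The 9 mRNAs also ranked high, with 107 (COX2) to 193 (ATP6) of these genes having a larger SD. Their SDs of log2 CPM ran from 0.57 (ATP6) to 0.68 (COX2), nearer to those of the rRNAs than on the TPM scale.

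**Figure D5:**
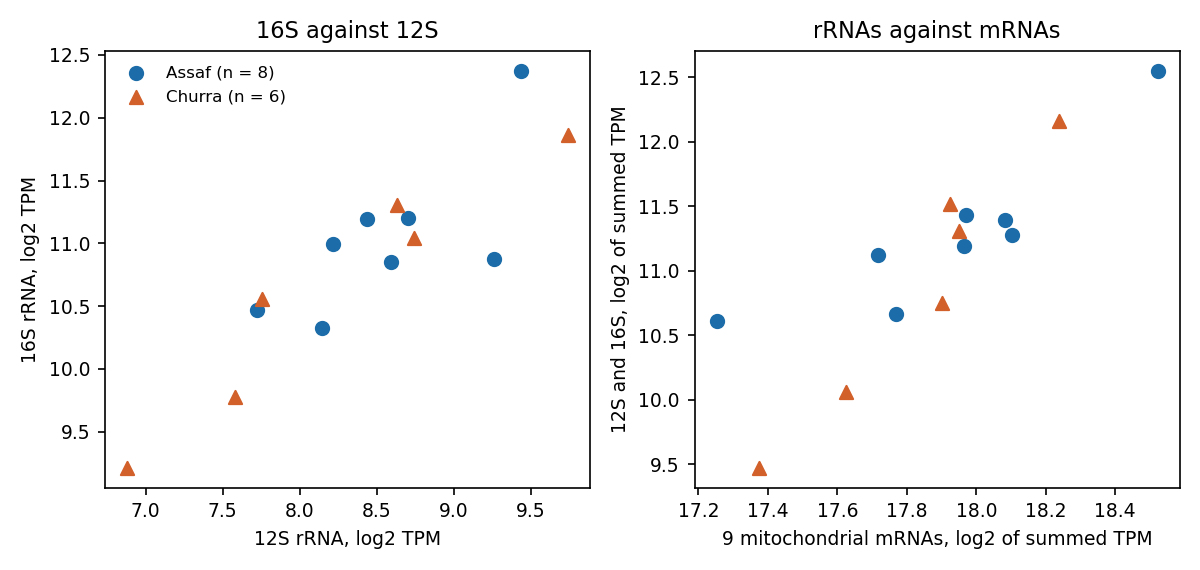
log2 TPM of 16S against 12S (left) and log2 of the summed TPM of both rRNAs against that of the 9 mRNAs (right), 1 point per lamb. Circles are Assaf (n = 8) and triangles Churra (n = 6). Both relations rise over the lambs, with rho of 0.868 in the right panel, where the rRNA axis spans 8.45-fold and the mRNA axis 2.41-fold.

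Single mRNAs followed the rRNAs to different degrees. Described by Pearson's r of log2 CPM over 14 lambs, 16S was closest among the 9 mRNAs to ND1 (0.941), with ATP6 at 0.940. It was least close to COX1 (0.886). Among the mRNAs outside the 9, r with 16S ran from 0.837 (ND3) to 0.949 (ATP8). 12S was closest among the 9 mRNAs to COX2 (0.902) and least close to ND2 (0.802). For the mRNAs outside the 9, r with 12S ran from 0.727 (ND4L) to 0.902 (ND6). ND6, from the other strand, had r of 0.902 with 12S and 0.927 with 16S. These values share libraries and scaling factors and are given without a test.

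Outside the mitochondrial genome, 3630 genes had a mean above 5 log2 CPM. The 2 most like 12S over the 14 lambs were ENSOARG00000013947 (r of 0.919) and ENSOARG00000010793 (r of 0.909). The 2 most like 16S were ENSOARG00000003233 (r of 0.925) and ENSOARG00000016445 (r of 0.917). The files do not pair these IDs with names. The median r over the 3630 genes was 0.0870 with 12S and 0.0869 with 16S. No gene outside the mitochondrial genome came closer to 16S than the closest of the 9 mRNAs, while 3 did so for 12S.

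The library measures available were set beside the rRNA values. The share of counts in both rRNAs had an r of -0.678 with the length slope (permutation p = 0.0037, adjusted p = 0.0210) and a rho of -0.657 (permutation p = 0.0125, adjusted p = 0.0711). Without Assaf 7 and Churra 2 the r was -0.504 (permutation p = 0.0921). The r was -0.664 for Assaf lambs alone (exact permutation p = 0.0475) and -0.707 for Churra lambs alone (exact permutation p = 0.114). Its part in the rRNA levels was not tested.

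The ratio of 16S to 12S had an r of -0.0646 with the length slope (permutation p = 0.828, adjusted p = 0.890; rho -0.196), and the ratio of rRNA to mRNA -0.515 (permutation p = 0.0590, adjusted p = 0.201; rho -0.354). With the total count, the ratio of 16S to 12S had an r of 0.380 (permutation p = 0.181, adjusted p = 0.342; rho 0.336), which was 0.712 without Churra 5 and Churra 6, the lambs of least and most counts (permutation p = 0.00836, not adjusted). For Assaf lambs alone it was 0.717 (exact permutation p = 0.0411, unadjusted) and for Churra lambs alone 0.0527 (exact permutation p = 0.918). The other 8 relations of the 3 rRNA values with total count, fragment length and live weight had adjusted p of 0.305 or more for r and 0.380 or more for rho.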

How the data were processed

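Each of the 14 tables lists 27054 gene IDs for 1 lamb. The authors deposited estimated counts (RSEM's expected count) and TPM, per the file headers, beside lengths and posterior SDs of the counts. Per the submitters' processing notes, STAR 2.4.0, RSEM 1.3.0, FastQC and Oar_v3.1 were used, in roles they do not state. For trimming and the strand setting the sources used here give nothing.

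Estimated counts were rounded to whole numbers, filtered with filterByExpr (13197 genes) and scaled by TMM, and tested with edgeR 4.0.16 (robust quasi-likelihood; breed, breed and day, or their product) in R 4.3.3. Alternatives used DESeq2 1.42.0 and limma 3.58.1 (on log2 of TPM plus 0.5 or 1 too). The fit was tested on simulated data. For 3 values of each lamb the breed means were tested by exact permutation, and 17 relations across lambs by 100000 random orders (exact within a breed), two-sided, with Benjamini-Hochberg adjustment. log2 CPM had a prior count of 2.

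Total counts, 14152623 to 24370948, set the counting precision. No lambs of 1 breed agreed within sampling noise (smallest chi-square per degree of freedom 26.5). Lambs were numbered in accession order. Members and lists were chosen with earlier results of these data known. Genes named by rule were the rRNAs, the 9 mRNAs and the 2 most similar genes outside the mitochondrial genome for each rRNA. ND3, ND4L, ND6 and ATP8 were named beside them.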

Additional observations from a re-analysis of the deposited data

Results flagged for a closer look

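Assaf 7 lay apart from the other 7 Assaf lambs in 3 linked values of the rRNAs, by Dixon's gap criterion at 95%. Its 16S level of 5313 TPM left a gap to the next lamb of 0.735 of the Assaf range. On the log2 CPM scale its 16S level was 13.76, with a gap of 0.572 of the range. Its share of counts in both rRNAs was 1.014%, with a gap of 0.739 of the range. In all, 7 values were looked at in each breed, and chance gives such a gap in about 1 of 20 groups. The 12S level and both ratios of Assaf 7 did not pass the criterion, and no Churra lamb did in any value.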

How the results depend on the processing

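The leading results of the report, that neither rRNA differed between the breeds or with the slaughter day at an adjusted p below 0.05 in edgeR, held under each alternative but DESeq2 for the day of 12S (-0.17 per day, adjusted p = 0.0491, 1 of 15 mitochondrial genes called). Signs without a call turned. The 12S breed value of -0.27 became 0.43 with slaughter day added, 0.32 on days 21 to 23 and 0.16 without Churra 1 and Churra 2, and that of 16S became 0.16 with slaughter day added. With 1 lamb left out they lay between -0.85 and 0.059 (12S) and -0.89 and 0.063 (16S). The day by breed terms lay between -0.13 and 0.11 (12S) and -0.18 and 0.080 (16S), positive without Assaf 1. Between breeds, the share of counts differed by 0.00890 on days 21 to 23 and 0.0244 without Churra 1 and Churra 2, and by -0.156 to 0.00103 with 1 lamb left out. The log2 ratio of 16S to 12S differed by 0.057 without Assaf 7 and Churra 6, 0.0035 without Churra 1 and Churra 2, and -0.19 to 0.00051 with 1 lamb left out. The ratio of rRNA to mRNA differed by 0.070 without Churra 1 and Churra 2. With the day, rho of 16S to 12S was 0.261 in Churra only and -0.317 to 0.0678 with 1 lamb left out, and rho of rRNA to mRNA 0.442 in Assaf only and 0.199 without Churra 1 and Churra 2. Within 1 breed, the rho of 16S with 12S and of rRNA with mRNA, 0.881 in Assaf and 0.943 in Churra, had adjusted p of 0.0616 and 0.0944. For these changes the cause was not tested. limma on log2(TPM + 0.5) moved the median of all genes to 0.10 between breeds, beside -0.34 for 12S and -0.41 for 16S. Omissions of Assaf 7 and Churra 6, or of Churra 1 and Churra 2, and the breed and day subsets of the 15-gene count, were chosen after seeing the data. No paired analysis was possible because lambs were numbered in accession order and the numbers pair no animals.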
